A study of Mus musculus with 12 samples.

Results

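Diethylnitrosamine (DEN) at day 2 was measured in 2 matched pairs of mouse liver arrays, DEN against vehicle and ATRA+DEN against ATRA, which are 4 of the 12 arrays of the study. The members were chosen by label and slide: they are the 4 arrays of day 2 without small interfering RNA, and all of them lie on 1 slide. All were wild-type male ICR mice, an outbred stock, 5 weeks old at purchase and adapted for 1 week. The DEN group drank water with DEN at 80 mg/L, about 400 µg a day. The vehicle group drank water. The ATRA+DEN group drank the same DEN dose together with all-trans-retinoic acid (ATRA) at 30 mg/L, about 150 µg a day, and the ATRA group drank ATRA without DEN. ATRA had been dissolved in ethanol and dimethyl sulfoxide, per the labels' protocols, and the label of the vehicle group names water only. Each group has 1 array, and whether that is 1 mouse or pooled mice is not in the labels.

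DEN is a liver carcinogen. Hepatocytes convert it through Cyp2e1, a P450 enzyme of the central zone of the lobule, into a species that attaches ethyl groups to DNA bases. DNA damage stabilises the transcription factor p53, which turns on genes that stop the cell cycle, genes that prepare cell death, and Mdm2, the ubiquitin ligase that returns p53 to a low level. ATRA is the active form of vitamin A and acts through nuclear retinoic acid receptors. The pairs ask which liver genes differ with DEN after 2 days, and which of those differences appear both without and with ATRA.

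Expression is given as a level: the log2 processed intensity of a probe minus the array's 75th percentile, so that 0 is the 75th percentile of that array. A difference is the level with DEN minus the level without it on the same slide, and a difference of 1 is 2-fold. Each array had between 45.9% and 50.7% of its 55681 probes well above background, and 1 array a group limits the precision. The array files give positions on mouse genome build mm9. A probe was kept in a pair if it was well above background on both arrays, which left 24403 probes for DEN against vehicle, 25723 for ATRA+DEN against ATRA and 23924 in both. They stand for 18271, 19017 and 17972 genes, each represented by its brightest probe; 5916 of the 17972 have only predicted or clone names. Spots of the same probe on an array had a median SD of at most 0.0739 (log2), which is technical spread and says nothing of spread between mice.

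The liver label was checked by markers: all 24 hepatocyte markers on the array were well above background on the 4 arrays, and albumin (Alb) had levels of 11.17 in DEN and 10.91 in ATRA+DEN, against 11.54 in vehicle and 11.22 in ATRA. The vehicle array stood apart in its pancreas genes, and the summed level of its red cell genes, given below, was also the highest of the 4. Of 27 genes of the exocrine and endocrine pancreas, 10 were well above background in DEN, 10 in ATRA+DEN and 9 in ATRA, against 25 in vehicle. The log2 of their summed level was 3.40 in DEN, 3.14 in ATRA+DEN and 3.39 in ATRA, against 7.16 in vehicle. All 27 were highest on the vehicle array, 26 of them at least 2-fold above each of the other 3 arrays. The trypsin gene Try5 was well above background in vehicle alone and was at least 125-fold higher there than in DEN, a lower bound set by the DEN array's lowest signal well above background or the probe's own signal, whichever is higher. The part of this RNA in other genes that were lower in DEN than in vehicle was not tested.

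In the pair without ATRA, 257 genes were at least 2-fold higher in DEN than in vehicle (1.41% of those measured) and 313 were at least 2-fold lower (1.71%); scaled to the array median in place of the 75th percentile, the counts were 335 and 240. In the pair with ATRA, 221 genes were at least 2-fold higher in ATRA+DEN than in ATRA (1.16%) and 307 were lower (1.61%). Among the 17972 genes measured on all 4 arrays, 33 were at least 2-fold higher in both pairs (0.184%) and 33 at least 2-fold lower in both (0.184%). The 33 shared higher genes were 13.3% of the 249 higher without ATRA and 16.3% of the 202 higher with it. The 33 shared lower genes were 11.3% of the 292 lower without ATRA and 12.1% of the 273 lower with it. At any size, 24.8% of genes were higher in both pairs and 31.1% lower in both. Across these genes the difference in one pair and that in the other had a Pearson r of 0.115 and a Spearman rho of 0.13. Genes are not independent replicates, and all 4 arrays share a slide.

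**Figure D1:**
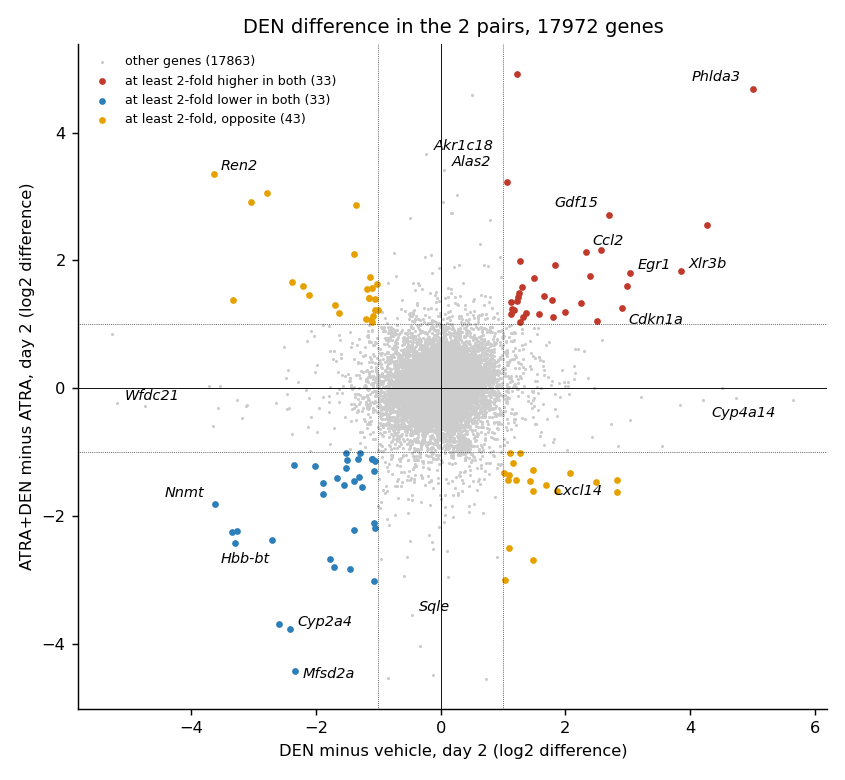
Each point is 1 of 17972 genes, with its log2 difference DEN minus vehicle on the x axis and ATRA+DEN minus ATRA on the y axis; dotted lines mark 2-fold. The 33 red genes were at least 2-fold higher in both pairs, the 33 blue ones at least 2-fold lower in both, and the 43 yellow ones at least 2-fold in opposite directions; most genes with a large difference in one pair lie near 0 in the other.

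The mean DEN difference over both pairs was fitted with limma, with ATRA as a covariate. A gene's own spread in this fit is the gap between its 2 pairs, with 1 degree of freedom. The empirical Bayes step of limma weighed this gap with a spread pooled over all genes, with 2.845 prior degrees of freedom. The SE and p of a gene therefore do not come from its own 2 pairs alone. No gene passed a Benjamini-Hochberg adjusted p of 0.05 over the 17972 genes (0%), while 595 genes with a positive and 618 with a negative mean had an unadjusted p below 0.05, together 6.75%, where 899 genes are the number a uniform spread of p gives. The smallest adjusted p was 0.208, for Phlda3. Genes are therefore described by their levels on each array and by the difference in each pair, and means are given with the standard error (SE) of this fit, n = 2 pairs. Fewer cells of a type and less RNA per cell cannot be told apart in whole liver RNA.

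By the smaller of their 2 differences, the 3 genes that were most strongly higher in both pairs were targets of p53. Phlda3, an inhibitor of the survival kinase Akt (probe on chromosome 1, 137665642 to 137665701), had levels of 3.70 in DEN and 3.20 in ATRA+DEN, against -1.32 in vehicle and -1.49 in ATRA. Both DEN arrays were far above both arrays without DEN, by 32.3-fold without ATRA and 25.8-fold with it. The mean difference was 4.85 (SE 0.17, limma adjusted p = 0.208). Gdf15, a secreted stress cytokine (chromosome 8, 73153293 to 73153352), had levels of 3.59 in DEN and 2.56 in ATRA+DEN, against 0.90 in vehicle and -0.15 in ATRA. Its differences of 2.69 and 2.71 were nearly equal, although both levels lay lower in the ATRA pair. The death receptor gene Tnfrsf10b (chromosome 14, 70184141 to 70184200) had levels of 0.24 in DEN and -0.10 in ATRA+DEN, against -2.33 in vehicle and -2.26 in ATRA, and the DEN arrays did not overlap the others.

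Cdkn1a, the cell cycle inhibitor p21 (chromosome 17, 29237377 to 29237436), had levels of 4.02 in DEN and 3.39 in ATRA+DEN, against 1.12 in vehicle and 2.13 in ATRA. Its difference was 2.90 without ATRA and 1.26 with it, and the ATRA array without DEN was itself above vehicle by 1.01. Mdm2 (chromosome 10, 117126010 to 117126069) had levels of 4.74 in DEN and 4.81 in ATRA+DEN, against 3.51 in vehicle and 3.45 in ATRA, so that the DEN arrays were above the others, by 2.34-fold without ATRA and 2.56-fold with it. Ccng1, the atypical cyclin G1, had levels of 2.73 in DEN and 1.93 in ATRA+DEN, against 0.47 in vehicle and 0.60 in ATRA. The mean differences were 2.08 (SE 0.44) for Cdkn1a, 1.29 (SE 0.15) for Mdm2 and 1.79 (SE 0.28) for Ccng1. Aen, a nuclease of apoptosis, was higher by 1.99 without ATRA and 1.19 with it, and Polk, a polymerase that copies past damaged bases, by 1.58 and 1.16.

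The 3 p53 lists were described as a whole: targets of arrest and p53 feedback, targets of the death pathway, and targets in stress, metabolism and secretion. Of 15 measured arrest and feedback genes, 12 were higher without ATRA and 12 with it, and 9 were higher and 0 lower in both pairs. Their median difference was 0.58 and 0.45, against -0.04 and -0.01 over all genes. Of 14 death pathway genes, 11 were higher in each pair, with 9 higher in both and medians of 0.31 and 0.44. Of 19 genes of stress, metabolism and secretion, 9 were higher and 5 lower in both, with medians of 0.13 and 0.14. At least 2-fold higher in both pairs were 3 arrest genes (Cdkn1a, Mdm2 and Ccng1), 3 death genes (Phlda3, Tnfrsf10b and Aen) and 2 of the last list (Gdf15 and Polk). Over all genes, 44.8% were higher without ATRA and 48.9% with it. In both pairs, 24.8% of all genes were higher, 31.1% were lower and 0.184% were at least 2-fold higher.

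Members of these lists also differed between the pairs or stayed near their level without DEN. The gene of p53 itself, Trp53, and the death receptor gene Fas lay within 0.5 of 0 in both pairs. The antiproliferative gene Btg2 had levels of 0.20 in DEN and -0.30 in ATRA+DEN, against -2.01 in vehicle and -0.91 in ATRA. Its difference was 2.21 without ATRA and 0.61 with it, and the ATRA array lay between the vehicle array and the DEN arrays. Trp53inp1, a cofactor of the p53 death programme, was higher by 1.54 and 0.84. Epha2, a receptor tyrosine kinase, was lower by 0.25 and 1.51.

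**Figure D2:**
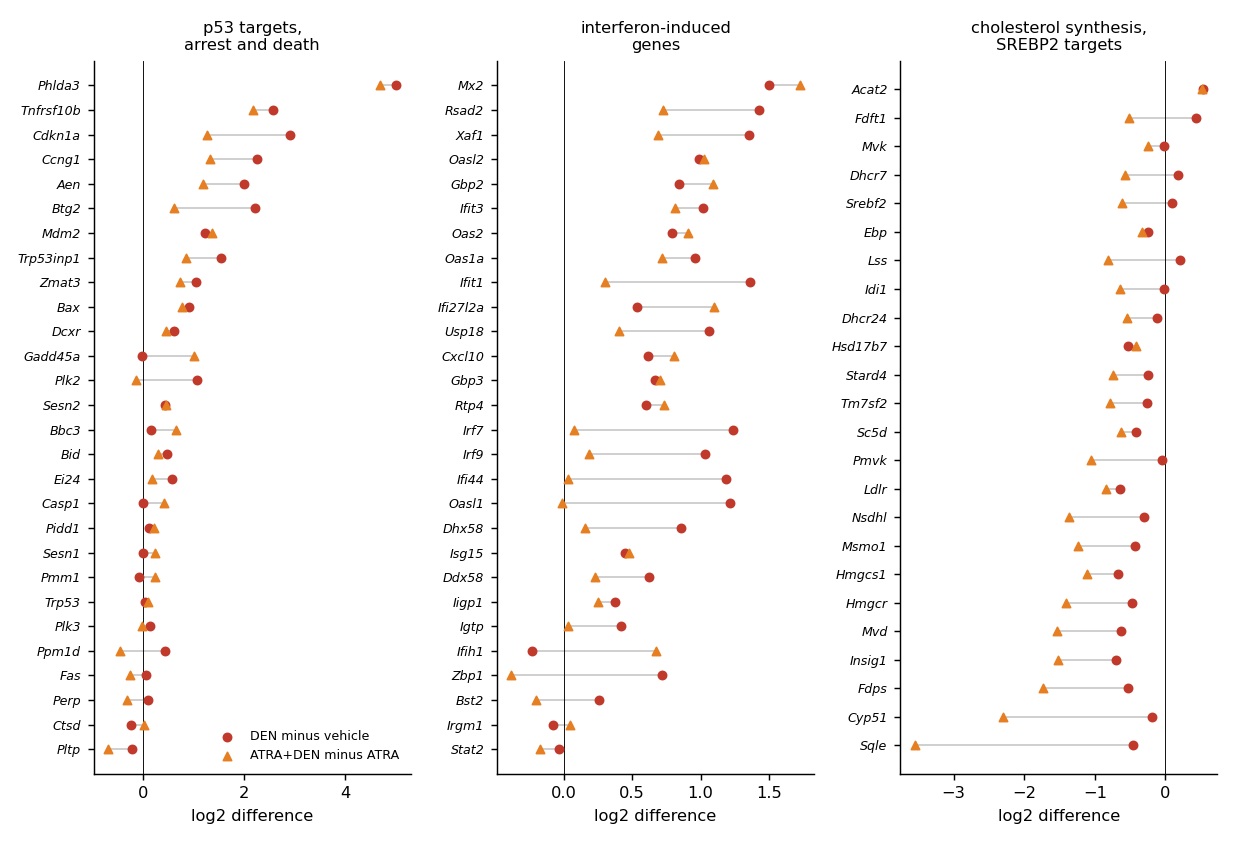
Differences of the measured members of the p53 arrest and death lists, the interferon list and the cholesterol list (1 member of the last is not drawn), with DEN minus vehicle as circles and ATRA+DEN minus ATRA as triangles (x axis, log2 difference). Phlda3 (5.01 and 4.69) lies far above the other p53 targets, most interferon genes lie right of 0, and the cholesterol genes reach further left with ATRA, down to -3.55 for Sqle.

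Some genes were above background only with DEN. In each pair the DEN array also had more of its probes well above background. The share was 47.2% in DEN against 45.9% in vehicle, and 50.7% in ATRA+DEN against 47.6% in ATRA. The part of this imbalance in the counts that follow was not tested. There were 262 genes well above background on both DEN arrays and on neither array without DEN, 137 of them with predicted or clone names (0.754% of 34741 genes), and 53 genes with the reverse pattern (0.153%). For these a fold is a lower bound: of the 262, 43 lacked a bound over 1-fold in at least 1 pair and 10 had a bound of at least 2-fold in both, and of the 53, 6 did. The X-linked lymphocyte-regulated gene Xlr4b was at least 8.88-fold higher in DEN than in vehicle and at least 5.39-fold higher in ATRA+DEN than in ATRA. Xlr4a was at least 4.59-fold and 4.32-fold higher. Xlr3b, of the same cluster, was measured on all arrays, with levels of 2.01 in DEN and 1.21 in ATRA+DEN, against -1.85 in vehicle and -0.62 in ATRA. The Xlr genes are near-identical copies, and a probe of one may also read another. Ddit4l, an inhibitor of the growth kinase mTOR, was at least 6.35-fold and 3.21-fold higher, the DNA glycosylase Neil2 at least 2.02-fold and 2.3-fold, and Slfn8, an interferon-inducible Schlafen gene, at least 2.36-fold and 1.97-fold. In the other direction, Dmbt1, a secreted scavenger receptor of epithelia, was at least 13.5-fold lower in DEN than in vehicle and at least 2.4-fold lower in ATRA+DEN than in ATRA. Its level was 0.48 in vehicle and -2.39 in ATRA, and the part of the pancreas RNA of the vehicle array in this was not tested. The zinc finger gene Zfp979 was at least 3.95-fold and 3.79-fold lower.

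Promoter windows were read from RefSeq (build GRCm38.p6), from 250 bases before to 50 bases after each annotated start, 300 bases in all. They were searched on both strands for the p53 half-site, the 10-base consensus that p53 binds in pairs. It was found in 8.36% of all 32851 windows, in 7 of 30 windows of the shared higher genes (24 of the 33 matched), in 3 of 27 windows of the shared lower genes (21 of the 33 matched) and in 16 of 66 windows of the 3 p53 lists together. Lists not chosen for p53 held it about as often, in 5 of 20 windows of the cholesterol list and 5 of 26 of the interferon list. A match is a description of letters, and no binding was measured. The windows shown are those of 2 established p53 targets that differed in both pairs and of 3 genes that were above background only with DEN; each holds a half-site, in capitals.
Cdkn1a promoter, chr17:29090729-29091028, plus strand: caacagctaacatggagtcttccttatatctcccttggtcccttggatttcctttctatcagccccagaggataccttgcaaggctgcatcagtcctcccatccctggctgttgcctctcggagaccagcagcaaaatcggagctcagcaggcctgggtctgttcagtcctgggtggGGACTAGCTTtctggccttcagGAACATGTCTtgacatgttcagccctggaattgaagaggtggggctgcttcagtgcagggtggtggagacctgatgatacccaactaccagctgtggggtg
Ccng1 promoter, chr11:40755237-40755536, minus strand: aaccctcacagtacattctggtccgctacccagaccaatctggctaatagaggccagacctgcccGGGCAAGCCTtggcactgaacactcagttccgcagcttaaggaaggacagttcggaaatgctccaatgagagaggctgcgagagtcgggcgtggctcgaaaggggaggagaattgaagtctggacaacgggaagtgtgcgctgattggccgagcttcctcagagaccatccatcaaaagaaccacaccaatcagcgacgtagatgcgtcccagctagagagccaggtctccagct
Ddit4l promoter, chr3:137623422-137623721, plus strand: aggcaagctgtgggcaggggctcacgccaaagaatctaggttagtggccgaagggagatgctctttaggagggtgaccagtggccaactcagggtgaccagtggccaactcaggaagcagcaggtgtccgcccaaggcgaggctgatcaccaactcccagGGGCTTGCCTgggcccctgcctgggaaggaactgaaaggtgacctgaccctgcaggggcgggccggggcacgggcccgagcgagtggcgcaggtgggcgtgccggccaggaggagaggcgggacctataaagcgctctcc
Xlr4b promoter, chrX:73214083-73214382, plus strand: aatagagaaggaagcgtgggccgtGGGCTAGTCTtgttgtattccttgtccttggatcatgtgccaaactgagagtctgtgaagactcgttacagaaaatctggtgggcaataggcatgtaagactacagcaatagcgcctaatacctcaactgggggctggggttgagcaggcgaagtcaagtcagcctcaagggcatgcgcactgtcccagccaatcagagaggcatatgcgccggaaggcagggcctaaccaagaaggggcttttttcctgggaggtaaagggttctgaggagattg
Xlr4a promoter, chrX:73082458-73082757, minus strand: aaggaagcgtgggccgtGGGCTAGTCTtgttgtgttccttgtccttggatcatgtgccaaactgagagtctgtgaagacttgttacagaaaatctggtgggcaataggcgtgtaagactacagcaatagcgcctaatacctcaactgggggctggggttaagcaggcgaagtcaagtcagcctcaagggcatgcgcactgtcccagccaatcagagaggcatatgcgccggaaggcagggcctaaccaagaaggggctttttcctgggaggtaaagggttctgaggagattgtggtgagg
The Cdkn1a window holds 2 matches, which begin 73 and 51 bases before the start. The Xlr4a and Xlr4b windows carry the same matching letters, 233 and 226 bases before their starts. The windows of Phlda3 and Gdf15 hold none, which says only that these letters are not in this window.

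Outside the p53 lists, the shared higher genes included an attractant of monocytes, an early growth response gene and an antiviral gene. Ccl2, the chemokine that draws monocytes (chromosome 11, 81850650 to 81850709), had levels of -0.61 in DEN and -0.89 in ATRA+DEN, against -2.94 in vehicle and -3.01 in ATRA. The 2 levels with DEN differed by less than the gap to those without it, and the mean difference was 2.22 (SE 0.15). Egr1, an immediate early transcription factor, had levels of 1.13 in DEN and 0.15 in ATRA+DEN, against -1.91 in vehicle and -1.65 in ATRA, and its differences were 3.04 and 1.80. Mx2, an antiviral GTPase, had levels of 1.66 in DEN and 1.83 in ATRA+DEN, against 0.16 in vehicle and 0.11 in ATRA. Rad54b, a helicase of homologous recombination, was higher by 1.66 and 1.45, and Sult2a7, a sulfotransferase, by 1.28 and 1.98. For Cplane1 and Atp8b5, other probes of the gene gave differences down to -0.25 and -0.03, so these values are those of 1 probe.

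Interferon-induced genes were higher in most members. Of 28 measured members, 25 were higher in DEN than in vehicle and 24 in ATRA+DEN than in ATRA, 22 in both and 1 lower in both, with median differences of 0.81 and 0.44 (0.52 and 0.29 with normexp). At least 2-fold higher were 10 members without ATRA and 4 with it (1.41% and 1.16% of all genes measured in these pairs), and Mx2 alone in both. Among all genes, 44.8% were higher without ATRA, 48.9% with it and 24.8% in both. Rsad2, the antiviral enzyme viperin, had levels of -0.51 in DEN and -1.02 in ATRA+DEN, against -1.94 in vehicle and -1.75 in ATRA. Oasl2, of the oligoadenylate synthetase family, differed alike in both pairs, by 0.99 and 1.02. Irf7, the transcription factor that amplifies the interferon response, had levels of -1.17 in DEN and -1.13 in ATRA+DEN, against -2.41 in vehicle and -1.20 in ATRA, so the vehicle array alone was low. Oasl1 had a difference of 1.22 without ATRA and -0.01 with it. A core of the site of interferon-activated factors, 2 copies of GAAA with any 2 bases between them, was found on either strand in 3.44% of all windows and in 16 of 26 windows of the interferon list (23 of 33 genes matched). The window of Isg15, a ubiquitin-like interferon product with differences of 0.45 and 0.48, holds 3 overlapping matches, in capitals.
Isg15 promoter, chr4:156200769-156201068, minus strand: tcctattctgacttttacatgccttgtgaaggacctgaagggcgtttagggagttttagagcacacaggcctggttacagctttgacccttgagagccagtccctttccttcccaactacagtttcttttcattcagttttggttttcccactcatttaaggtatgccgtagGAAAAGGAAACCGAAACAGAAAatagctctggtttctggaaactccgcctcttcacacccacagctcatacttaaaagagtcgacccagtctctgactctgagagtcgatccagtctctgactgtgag
Of 6 measured MHC class II genes, which present antigen on macrophages, dendritic cells and B cells, 5 were higher in both pairs, with medians of 0.52 and 0.76. The sixth, H2-Eb1, had a level of 1.56 on the ATRA array and between -2.22 and -1.18 on the other 3. H2-Aa had levels of 0.01 in DEN and 0.09 in ATRA+DEN, against -0.62 in vehicle and -2.17 in ATRA, with the ATRA array alone low. Macrophage markers lay near 0 as a list: of 17 measured, 9 were higher without ATRA and 14 with it, with medians of 0.04 and 0.15 and a log2 summed level of 7.20 in DEN and 7.62 in ATRA+DEN, against 7.49 in vehicle and 7.40 in ATRA. For all genes the shares higher were 44.8% without ATRA and 48.9% with it, and 24.8% in both pairs.

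Defence and repair genes differed less, and 24.8% of all genes were higher and 31.1% lower in both pairs. Of 23 glutathione and NRF2 defence genes, 14 were higher and 5 lower in both pairs, with medians of 0.16 and 0.31. Nfe2l2, which encodes NRF2, had a difference of 1.64 without ATRA and 0.34 with it, and the quinone reductase Nqo1 of 1.17 and 0.59. Ephx1, the epoxide hydrolase of the endoplasmic reticulum, was higher by 0.84 and 0.77. Of 17 measured genes for DEN activation and repair of alkylated DNA, 8 were higher and 2 lower in both pairs, with medians of 0.14 and 0.27. Mgmt, the protein that takes alkyl groups off guanine, had levels of 3.02 in DEN and 2.68 in ATRA+DEN, against 2.48 in vehicle and 2.18 in ATRA, and Cyp2e1 differed by -0.41 and -0.09.

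Genes lower in both pairs were led by red cell genes, a P450 enzyme, lipid genes and clock genes. The globin gene Hbb-bt (chromosome 7, 110961105 to 110961164) had levels of 2.20 in DEN and 1.70 in ATRA+DEN, against 5.50 in vehicle and 4.12 in ATRA. Hba-a1, Hba-a2, Hbb-bs and Hbb-b2, which are near-identical to other globin copies, were lower in both pairs too, by at least 1.66 without ATRA and 1.42 with it. Of 10 measured red cell genes, 7 were lower and 2 higher in both pairs, with medians of -1.04 and -0.90 (all genes: 31.1% lower and 24.8% higher in both). The log2 summed level of red cell genes was 7.07 in DEN and 7.11 in ATRA+DEN, against 9.33 in vehicle and 8.06 in ATRA, and the part of blood left in the tissue was not tested. Alas2, the enzyme that begins haem synthesis in red cell precursors, did not follow the globins: its level was 5.37 in DEN and 5.64 in ATRA+DEN, against 5.30 in vehicle and 2.23 in ATRA.

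Cyp2a4, a steroid hydroxylase (chromosome 7, 27099880 to 27099939), had levels of 6.19 in DEN and 3.81 in ATRA+DEN, against 8.60 in vehicle and 7.58 in ATRA. Its probe may also read the near-identical Cyp2a5. Both DEN arrays were below both arrays without DEN, and the lower of them was ATRA+DEN. Mfsd2a, a transporter of lysolipids, had levels of -0.43 in DEN and -1.71 in ATRA+DEN, against 1.90 in vehicle and 2.72 in ATRA. Nnmt, the nicotinamide methyltransferase, had levels of -0.89 in DEN and 0.63 in ATRA+DEN, against 2.73 in vehicle and 2.45 in ATRA. The mean differences were -3.09 (SE 0.38) for Cyp2a4, -3.38 (SE 0.55) for Mfsd2a and -2.72 (SE 0.48) for Nnmt. Dusp1, a phosphatase that ends MAP kinase signals, was lower by 1.26 and 1.55, and the deubiquitinase Usp2 by 1.89 and 1.65.

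Clock genes were lower in most members, against 31.1% of all genes lower in both pairs. Of 19 measured, 13 were lower and 2 higher in both pairs, with medians of -0.44 and -0.34 (-0.28 and -0.23 with normexp). Per1, a repressor arm gene of the clock, had levels of 0.26 in DEN and 0.17 in ATRA+DEN, against 1.77 in vehicle and 1.43 in ATRA, and Per2 differed by -1.07 and -1.30. Nr1d2, a nuclear receptor of the clock, differed by -1.45 without ATRA and 0.11 with it, and Bhlhe40 by -0.17 and -1.84. The labels give no hour of dissection, so time of day was not tested. The box CACGTG, which CLOCK and BMAL1 bind, was found in 7.15% of all windows and in 6 of 24 windows of the clock list (19 of 24 genes matched), and also in 4 of 20 windows of the cholesterol list and 12 of 66 of the p53 lists. The Per1 window is shown because Per1 was lower in both pairs; the box is in capitals.
Per1 promoter, chr11:69098699-69098998, plus strand: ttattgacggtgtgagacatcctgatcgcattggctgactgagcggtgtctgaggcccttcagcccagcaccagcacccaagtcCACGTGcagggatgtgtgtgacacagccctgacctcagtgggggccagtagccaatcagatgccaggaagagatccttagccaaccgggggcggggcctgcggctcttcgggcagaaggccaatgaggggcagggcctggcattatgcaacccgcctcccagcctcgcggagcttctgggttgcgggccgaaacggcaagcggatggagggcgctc

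**Figure D3:**
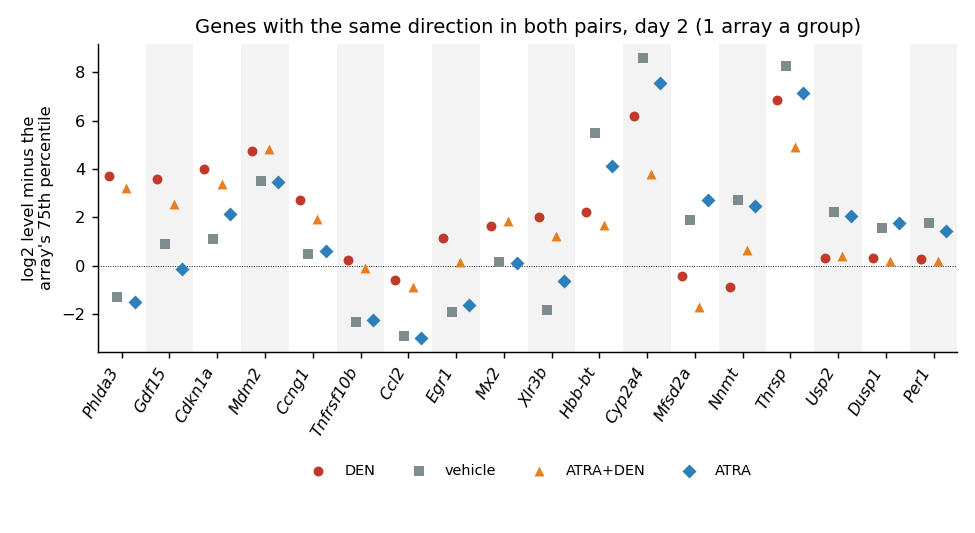
Levels (y axis, log2 relative to the array's 75th percentile) of 18 genes with the same direction in both pairs, 1 point an array: DEN and ATRA+DEN, against vehicle and ATRA. In the first 10 genes both DEN arrays lie above both arrays without DEN, from Phlda3 at 3.70 and 3.20 to Xlr3b at 2.01 and 1.21; in the other 8 they lie below.

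Most lipid synthesis genes were lower in both pairs, by little without ATRA and further with it. The share of all genes lower in both was 31.1%. At least 2-fold lower were 1.71% of all genes measured without ATRA and 1.61% of those measured with it. Of 25 genes of fatty acid and triglyceride synthesis, 18 were lower and 2 higher in both pairs, with medians of -0.21 without ATRA and -0.78 with it. The median without ATRA was -0.11 when scaled to the array median and -0.10 with normexp correction. At least 2-fold lower were 2 without ATRA and 8 with it, among them Fasn, the fatty acid synthase, with levels of 2.62 in DEN and 0.15 in ATRA+DEN, against 3.69 in vehicle and 2.26 in ATRA. Fasn differed by -1.06 and -2.12, the lipogenic regulator Thrsp by -1.39 and -2.23, and the desaturase Scd1 by -0.49 and -2.39. G0s2, the inhibitor of the triglyceride lipase ATGL, had levels of 3.33 in DEN and 0.44 in ATRA+DEN, against 4.28 in vehicle and 3.12 in ATRA. The ATRA+DEN array was the low one, and the differences were -0.95 and -2.68.

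Most cholesterol synthesis genes were also lower in both pairs, against 31.1% of all genes, and further with ATRA. Of 25 members, 19 were lower in DEN than in vehicle and 24 in ATRA+DEN than in ATRA, 19 in both. Their medians were -0.25 and -0.82 (-0.15 and -0.83 with the array median, -0.14 and -0.75 with normexp), and 0 were at least 2-fold lower without ATRA, against 11 with it. Of all genes measured, 1.71% were at least 2-fold lower without ATRA and 1.61% with it. At any size, 44.8% of all genes were higher without ATRA and 48.9% with it. Sqle, the squalene epoxidase (chromosome 15, 59162688 to 59162747), had levels of 3.16 in DEN and -0.24 in ATRA+DEN, against 3.61 in vehicle and 3.31 in ATRA. The ATRA+DEN array alone was low, while the other 3 lay within 0.5 of each other. Cyp51, a sterol demethylase, had levels of -0.08 in DEN and -2.70 in ATRA+DEN, against 0.11 in vehicle and -0.39 in ATRA. Fdps, which makes farnesyl diphosphate, differed by -0.53 and -1.73, and Insig1, which holds SREBP in the endoplasmic reticulum, by -0.70 and -1.53. The element TCACCCCA, a core of the sterol response site, was found in 1.56% of all windows and in 2 of 20 windows of this list (17 of 25 genes matched). The window of Hmgcs1, the synthase that feeds the mevalonate pathway, which differed by -0.67 and -1.11, holds 1 match.
Hmgcs1 promoter, chr13:119690101-119690400, plus strand: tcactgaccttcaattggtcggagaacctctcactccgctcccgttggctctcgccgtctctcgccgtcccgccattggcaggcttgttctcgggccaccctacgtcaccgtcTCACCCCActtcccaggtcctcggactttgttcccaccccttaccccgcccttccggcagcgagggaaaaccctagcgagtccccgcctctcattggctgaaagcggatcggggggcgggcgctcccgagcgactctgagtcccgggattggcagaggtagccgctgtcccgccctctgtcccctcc
With 1 array in each of the 4 groups, the gap between pairs was not tested.

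ER chaperones, urea cycle genes and hepatocyte markers were lower by small amounts. Beside their counts, 31.1% of all genes were lower and 24.8% higher in both pairs. Of 23 ER stress genes, 14 were lower and 1 higher in both pairs, with medians of -0.22 and -0.40. Creld2, a secreted ER stress protein, differed by -0.82 and -0.90, and the chaperone Hyou1 by -0.67 and -0.75. Of 14 genes of the urea cycle and ammonia handling, 13 were lower and 0 higher in both pairs, with medians of -0.28 and -0.27, and Cps1, its first enzyme, differed by -0.47 and -0.65. Of 24 hepatocyte markers, 18 were lower and 1 higher in both, with medians of -0.27 and -0.09, but by quantile normalization the number lower in DEN than in vehicle was 12, against 22 here.

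Other lists had medians of opposite sign in the 2 pairs. Of 18 heat shock genes, 13 were higher in DEN than in vehicle and 16 were lower in ATRA+DEN than in ATRA, with medians of 0.14 and -0.44; the co-chaperone Dnajb1 differed by 1.02 and -0.89. Of 15 immediate early genes, 12 were higher without ATRA and 9 lower with it (of all genes, 44.8% and 48.9% were higher), with medians of 0.50 and -0.18 (0.13 and -0.12 with normexp correction); Atf3 differed by 1.60 and -0.75. Of 17 cell cycle genes, 14 were lower without ATRA and 13 higher with it, with medians of -0.31 and 0.18. Birc5, which encodes survivin, had levels of -1.88 in DEN and 0.58 in ATRA+DEN, against -0.68 in vehicle and 0.06 in ATRA, and Ccnd1, cyclin D1, had 1.17 in DEN and 1.99 in ATRA+DEN, against 2.25 in vehicle and 1.45 in ATRA. Of 15 stellate cell and matrix genes, 11 were lower without ATRA and 11 higher with it, and the collagen gene Col1a1 differed by -1.88 and 0.99. In each of these lists the vehicle array and the ATRA array also differ from each other, and which array carries the gap was not tested. Of 11 measured liver genes with a female bias, 6 were higher without ATRA and 9 lower with it, with medians of 0.52 and -0.44. The 17 remaining lists had medians between -0.295 and 0.052 without ATRA and between -0.254 and 0.306 with it. Single members of them moved further. Of 26 acute phase genes, 7 were at least 2-fold lower and 1 at least 2-fold higher without ATRA, and 0 either way with it. Of all genes measured in the pair without ATRA, 1.71% were at least 2-fold lower.

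**Figure D4:**
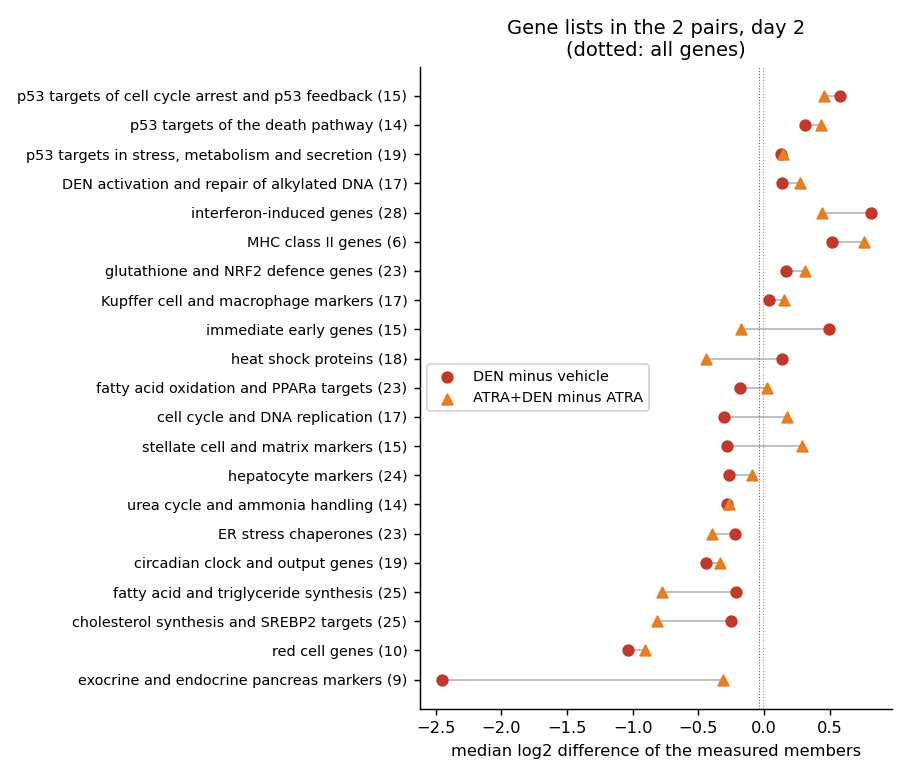
Median log2 difference (x axis) of the measured members of 21 gene lists, with the number measured in parentheses; circles are DEN minus vehicle, triangles ATRA+DEN minus ATRA, and dotted lines the medians of all genes. The p53 arrest list lies at 0.58 and 0.45 and the red cell list at -1.04 and -0.90, whereas the pancreas list lies at -2.46 without ATRA and -0.31 with it.

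The genes that were at least 2-fold apart in one pair and less than 0.5 (log2) apart in the other form the largest class. Without ATRA alone, 129 genes were higher (0.718%) and 171 lower (0.951%), and 174 and 126 when scaled to the array median. With ATRA alone, 99 were higher (0.551%) and 136 lower (0.757%). For each of these genes the array farthest from the median of the other 3 was found. Among the 129, it was DEN for 62 and vehicle for 67, and among the 171 it was DEN for 78 and vehicle for 93. Among the 99, it was ATRA+DEN for 60 and ATRA for 39, and among the 136 it was ATRA+DEN for 80 and ATRA for 56. An array of the close pair was farthest for 0 genes. The classes were set by these same levels, which all but fixes that outcome, so the tally is a description and not a test.

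Among genes higher only without ATRA were fatty acid hydroxylases and retinoic acid enzymes. Cyp4a14, a P450 of fatty acid omega-hydroxylation controlled by PPAR alpha (chromosome 4, 115158914 to 115158973), had levels of 3.57 in DEN and 1.93 in ATRA+DEN, against -1.18 in vehicle and 2.08 in ATRA. The vehicle array was low, the 2 ATRA arrays lay between, and the differences were 4.74 and -0.15. Cyp4a10 and Cyp4a31, whose probes may read one another, differed by 1.99 and 0.03 and by 2.05 and 0.04. Fatty acid oxidation and PPAR alpha targets as a list did not share this: of 23 measured, 17 were lower without ATRA and 13 higher with it, with medians of -0.19 and 0.02. Of all genes, 44.8% were higher without ATRA and 48.9% with it. Cyp26a1, the enzyme that breaks down retinoic acid, had levels of 1.87 in DEN and 6.40 in ATRA+DEN, against 0.42 in vehicle and 6.63 in ATRA. Its differences were 1.45 and -0.23. Cyp26b1, its paralog, had levels of 2.12 in DEN and 6.00 in ATRA+DEN, against -0.24 in vehicle and 5.85 in ATRA. Both enzymes were high on both ATRA arrays, and DEN was above vehicle where no ATRA was given. For Tead2, whose probe differed by 5.66 and -0.18, the other probe differed by -0.70 and -0.10.

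Genes lower only without ATRA included pancreatic enzymes, in which the vehicle array was the high one. Of the pancreas list, 9 genes were among the 171 and 10 among the 313 genes lower in DEN than in vehicle, and without that list the counts were 162 and 303. Cel, a bile salt lipase of the pancreas, had levels of -1.89 in DEN and -1.72 in ATRA+DEN, against 1.82 in vehicle and -1.75 in ATRA, and Ctrc, a chymotrypsin, showed the same arrangement. Wfdc21, a secreted whey acidic protein, had levels of 3.32 in DEN and 7.23 in ATRA+DEN, against 8.50 in vehicle and 7.47 in ATRA, so that DEN was the low array. Asf1b, a histone chaperone, had a level of 2.09 in vehicle and between -2.65 and -1.85 on the other arrays.

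Genes higher only with ATRA included Akr1c18, which inactivates progesterone (chromosome 13, 4131895 to 4131954), with levels of -2.0 in DEN and 1.40 in ATRA+DEN, against -1.77 in vehicle and -2.26 in ATRA. The ATRA+DEN array alone was high. Gsta2, a glutathione transferase, had levels of 2.74 in DEN and 5.21 in ATRA+DEN, against 2.56 in vehicle and 2.47 in ATRA, and differed by 0.18 and 2.74. Chac1, which degrades glutathione, differed by -0.03 and 1.88. Elovl3, a fatty acid elongase, had levels of 4.23 in DEN and 4.68 in ATRA+DEN, against 4.39 in vehicle and 2.60 in ATRA, so there the ATRA array was the low one. Among genes lower only with ATRA, besides Sqle and Cyp51, were the hormone gene Angptl8, with levels of 7.60 in DEN and 4.42 in ATRA+DEN, against 7.75 in vehicle and 6.82 in ATRA, and the mitochondrial carrier Slc25a25, which differed by -0.12 and -2.51. Morc4 had a level of 3.24 in ATRA and between -1.24 and -0.43 on the other arrays.

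Opposite differences of at least 2-fold were seen for 43 genes: 19 were higher in DEN than in vehicle and lower in ATRA+DEN than in ATRA (0.106%), and 24 were the reverse (0.134%). Cxcl14, a chemokine, had levels of 1.20 in DEN and 1.73 in ATRA+DEN, against -0.49 in vehicle and 3.25 in ATRA. Ren2, a renin gene carried by some mouse strains only, had levels of -1.05 in DEN and 2.33 in ATRA+DEN, against 2.58 in vehicle and -1.02 in ATRA. A DEN array and an array without DEN shared each level of Ren2. ICR mice are outbred, and the part of genotype was not tested.

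Genes chosen at day 2 were also read on the 4 arrays of day 7 with the same treatments by title, which the choice did not use. Of the 33 shared higher genes, 32 were well above background on all 4, and 23 were higher with DEN in both day-7 pairs (71.9%), against 26.6% of 16253 genes. Their median differences at day 7 were 2.09 without ATRA and 1.38 with it, against -0.05 and -0.02 over all genes. Of the 33 shared lower genes, 29 were measured and 17 were lower in both day-7 pairs (58.6%, against 35.2%), with medians of -0.71 and -0.34. Among single genes, Phlda3 differed at day 7 by 6.96 and 6.91, Cdkn1a by 4.87 and 3.78, and Gdf15 by 4.64 and 3.89. Egr1 differed by 2.08 and 1.52, and Ccl2 by 0.50 and 0.79. Sqle and Per1, with negative differences at day 2, had 0.50 and 0.31 and 0.49 and 0.42 at day 7. The treatment characteristic of 3 of these arrays names another group than their titles do. With groups by that characteristic, 5 shared higher and 4 shared lower genes kept their direction in both day-7 pairs, and the titles were used because source names match them.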

How the data were processed

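Liver RNA of 4 day-2 groups with 1 array each was analysed, and the day-7 arrays were used only for genes chosen at day 2. The deposited array files hold processed spot intensities of Agilent Feature Extraction (version 10.7.1.1 per the file headers, 9.5.1.1 per the submitters' processing notes), background-subtracted by the authors' software. Non-control spots without outlier flags were taken to log2, averaged per probe, and the array's 75th percentile was subtracted. The deposited series table holds linear intensities the authors normalized, and was an alternative only. Of 55681 probes, 27235 were named through their accession, 3581 by symbol and 565 by synonym in RefSeq, and 24300 kept the file's name. For genes with several probes, the one with the highest mean over the 4 arrays was taken.

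The main fit was limma 3.58.1 (R 4.3.3) on the 4 arrays with ATRA as a covariate, Benjamini-Hochberg adjusted over 17972 genes, and was tested on simulated data. A gene's own residual spread is the gap between its pairs alone (1 degree of freedom). The empirical Bayes step moderated it towards a spread pooled over all genes (2.845 prior degrees of freedom). Because no group has replicates, any p-value rests on gaps between pairs, the gene's own and those of all genes, and not on spread between mice.

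Genes were named by rule. Cdkn1a, Mdm2, Phlda3, Gdf15, G0s2 and Cyp26a1 were always eligible, as were the 15 highest and 15 lowest in both pairs by the smaller difference, the 10 largest in each direction that differed in 1 pair, 5 in each opposite direction, 5 above background only with or only without DEN, and up to 4 members of a list with the largest mean difference and 2 whose pairs differed most. Trp53, Fas, Isg15, Hmgcs1, Cyp2e1, Scd1 and other list members outside the rule were chosen after their values were seen, as were the promoter windows. The 4 groups, the 39 gene lists and the rule were chosen with earlier results of these data known. Alternatives were quantile normalization, the array median, normexp background correction (offset 50), the deposited series table, no filter on dim probes, 3-fold in place of 2-fold, the median over a gene's probes, a limma trend, and fits with more arrays. A few eligible genes are not reported here.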

Additional observations from a re-analysis of the deposited data

Results flagged for a closer look

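Genes whose difference was at least 2-fold upward in one pair and at least 2-fold downward in the other are listed here because the DEN difference ran in opposite directions without and with ATRA. The gap between the pairs was not tested, since each group has 1 array. Cxcl14 had a difference of 1.69 for DEN minus vehicle and -1.51 for ATRA+DEN minus ATRA, and the ATRA array was the highest of the 4. Tmprss4, a membrane serine protease, had 1.48 and -2.69, Pls1, an actin-bundling protein, 1.43 and -1.46, the keratin-associated gene Krtap31-1 1.48 and -1.62, and Slc27a1, a fatty acid transporter, 1.21 and -1.44. In the reverse direction, Ren2 had -3.64 and 3.35 and the NADPH oxidase gene Nox4 -1.35 and 2.86. The splicing factor gene Cwc22 had -1.69 and 1.29, Fam171b -1.18 and 1.54, and Gpat3, an acyltransferase of triglyceride synthesis, -1.15 and 1.41. For Nox4, Cwc22 and Fam171b the other probes of the gene gave the same signs.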

How the results depend on the processing

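No named gene at least 2-fold apart in a pair changed sign there under another scaling, background correction or the median over a gene's probes. Neither did the median of a described list under another scaling or background correction. Single other probes did have the other sign for some genes. They gave -0.70 against 5.66 for Tead2 and -0.03 against 1.79 for Atp8b5, both without ATRA. For Cplane1 with ATRA, 1 gave -0.25 against 1.92. For Slc16a7, a shared lower gene, the other probe gave 0.31 against -1.39 with ATRA. The day-7 medians changed sign with groups by characteristic: with ATRA, the shared higher genes had -1.80 against 1.38 by title, and the shared lower genes 0.49 against -0.34. The balance of higher to lower genes without ATRA turned with the array median, to 335 and 240, and 174 and 126 for those only without ATRA. The 4 arrays gave 0 genes past an adjusted p of 0.05 with limma, and Phlda3 alone (1 gene) passed with normexp correction (adjusted p = 0.031), with a trend (0.0355) and in a fit of 8 arrays (0.0324). In the other fits the smallest adjusted p of any gene was 0.267 by quantile normalization, 0.347 by the deposited table, 0.545 without the filter, 0.313 with 12 arrays and 0.999 with day-7 groups by characteristic. With quantile normalization the shared genes were 37 higher and 32 lower, and 33 and 32 of them are in the main sets. Without ATRA, list medians moved by over 1.5 times for ER stress (-0.12), urea cycle (-0.18), stellate (-0.18), alkylation repair (0.24), NRF2 (0.27), heat shock (0.24), macrophage (0.14), cell cycle (-0.20), fat oxidation (-0.08), hepatocyte (-0.16) and other p53 genes (0.23) with the array median, and for hepatocyte markers (-0.01) by quantile normalization. Fat oxidation without ATRA moved that far also with normexp (-0.07) and quantile normalization (-0.10). So did stellate (-0.175), urea cycle (-0.176) and heat shock (0.212) with normexp, and other p53 genes (0.197) by quantile normalization. With the deposited table, hepatocyte markers (-0.012), fat oxidation (-0.105) and other p53 genes (0.197) moved that far too. Medians with ATRA were not stable either. With normexp they were 0.05 against 0.14 for other p53 genes, 0.09 against 0.18 for cell cycle and -0.15 against -0.31 for pancreas. By quantile normalization, hepatocyte markers had -0.05 against -0.09 with ATRA. Scaling to the array median moved the median of all genes by 0.102 without ATRA and -0.015 with it. Normexp correction gave 115 genes higher and 101 lower without ATRA, 91 and 120 with it, 21 and 16 shared, 6 and 8 opposite, 61 and 51 only without ATRA, and 37 and 63 only with it. No filter on dim probes gave 1277 and 2206, 1451 and 1950, 176 and 316, 151 and 216, 659 and 1147, and 733 and 1081 in that order. A 3-fold threshold gave 77 and 86, 57 and 87, 10 and 11, 2 and 5, 34 and 35, and 17 and 28. With a gap between pairs of at least 2 (log2), 47 genes were higher and 67 lower only without ATRA, and 43 and 55 only with it. Among lists, no filter gave 8 MHC class II genes higher with ATRA, 23 cell cycle genes lower without and 22 higher with it, 13 and 12 red cell genes lower, and 27 and 19 pancreas genes lower. Hepatocyte markers lower without ATRA were 12 by quantile normalization and 12 by the deposited table, against 22. With day-7 groups by characteristic, 5 and 4 shared genes kept their direction at day 7. Probes near background give bounds only. The cause of these shifts was not tested.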
